A study of Mus musculus with 6 samples.

Results

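Genes of the immunoproteasome and of peptide loading for MHC class I were followed in N18-Fms cells before and after stimulation with CSF-1. The 10 genes, out of 36028 with a usable probe, were chosen by name as Psmb8, Psmb9, Psmb10, Psme1, Psme2, Tap1, Tap2, Tapbp, Erap1 and Nlrc5. They were measured by 13 probes. All 10 entered the tests, which required a signal well above background on both replicates of some group. N18-Fms is a sorted population of one luciferase-transfected subclone of the murine TRAMP C2H prostate cancer line, itself clonal, that was transduced by retrovirus with murine c-fms, the gene of the CSF-1 receptor. All 3 groups share these alterations and a medium with serum and dihydrotestosterone. By the study's account, the control cells were left unstimulated and stand for 0 h. No control group is given for the later times, so time in culture and CSF-1 cannot be told apart. The other groups received recombinant murine CSF-1 at 100 ng/mL for 24 h or 48 h. These times are those of the sample labels and of the study's results, whereas its methods give shorter times. Each group has 2 arrays, from separate experiments by the labels, and all p-values measure the spread between these arrays of 1 cell population.

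The proteasome cuts cytosolic proteins into peptides. Cytokines such as interferon-gamma replace its catalytic subunits by the immunosubunits encoded by Psmb8, Psmb9 and Psmb10, and add the PA28 activator encoded by Psme1 and Psme2. The peptides are carried into the endoplasmic reticulum by the TAP transporter, trimmed there by the aminopeptidase encoded by Erap1, and loaded onto class I molecules held near TAP by tapasin. Nlrc5 encodes a transactivator of class I genes.

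Between 58.7% and 72.0% of 59305 spots per array were well above background and 0 were saturated. The first 24 h array came from a slide of its own, and slide and array cannot be told apart for it. Of 8 epithelial markers, 5 to 7 were well above background on each array, with Krt8 among them, but Cdh1 was above background on none and Epcam on 1 of 6. Of 12 leukocyte markers, 8 to 10 were above background per array, including the transduced Csf1r, while Lyz2 and Itgax were above it on none. Without Csf1r, the summed signal of the leukocyte list, before any scaling between arrays, was 26940 and 27870 in control cells. It was 20200 and 23780 after 24 h and 17990 and 21010 after 48 h. These sums came mostly from Itgam, which differed by -0.43 at 24 h and -0.65 at 48 h on the log2 scale without passing. The median log2 fold change of the 10 tested markers of the list, Csf1r among them, was 0.25 at 24 h and 0.04 at 48 h. By limma, 0 of 10 members of the list tested were called at an adjusted p under 0.05 at either time, against 3 at 24 h and 2 at 48 h at an unadjusted p under 0.05. Of 8 stromal and endothelial markers, 7 or 8 were above background per array, and their summed signal was 178500 and 195900 in control cells, 82120 and 83730 at 24 h, and 73320 and 90640 at 48 h. These sums were also not scaled and came mostly from Col1a1 and Col1a2. Of this list, 3 rose (Cdh5, Dcn and Pdgfra) and 3 fell (Col1a1, Col1a2 and Pdgfrb) at 24 h, and at 48 h the same genes except Pdgfra passed again in the same direction. The part of these markers in the results below was not tested. In cultured cells measured in bulk, fewer cells that express a gene and less RNA per cell cannot be told apart.

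Probes on the array are 60-base oligonucleotides, and 4 of them are shown. Those of Tap1, Psmb8 and Psmb9 carry the readout of genes with a low signal, and the weaker of the Nlrc5 probes is shown because it did not follow the brighter one. By the annotation in the files, on mouse build mm9, the Tap1 probe lies at chr17:34330854-34330913 on the + strand, from base 2020 of the transcript. The Psmb8 probe lies at chr17:34337771-34337830 on the + strand, from base 856, and the Psmb9 probe at chr17:34319174-34319233 on the - strand, from base 616. The weaker Nlrc5 probe lies at chr8:97030478-97030624 on the + strand, from base 4062, and its 60 bases cross an intron. The brightest probes of the others lie at chr17:34353116-34353175 for Tap2, chr17:34065963-34066022 for Tapbp, chr8:108459677-108459736 for Psmb10, chr14:56200194-56200253 for Psme1, chr14:56206296-56206355 for Psme2 and chr13:74828969-74829028 for Erap1. Exon and UTR bounds were not analysed here.
Tap1: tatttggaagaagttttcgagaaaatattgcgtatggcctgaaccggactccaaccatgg
Psmb8: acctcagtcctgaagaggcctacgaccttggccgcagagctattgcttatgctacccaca
Psmb9: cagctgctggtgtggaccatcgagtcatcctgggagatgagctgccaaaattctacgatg
Nlrc5, weaker probe: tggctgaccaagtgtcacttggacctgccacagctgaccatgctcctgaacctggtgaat

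Promoter windows were taken from RefSeq (GRCm38.p6), 250 bases before to 50 after each start, and 8 of the 10 genes matched a window. Tap1 and Psmb9 start 226 bases apart on opposite strands, so their windows share 275 bases. The 250 bases before the start of Tap1, at chr17:34187306-34187555 on the + strand, hold 250 of these bases. The 250 bases before the start of Psmb8, at chr17:34197945-34198194 on the + strand, are shown beside them, with a match to the gamma-activated site TTCNNNGAA in capitals, 97 bases before the start.
Tap1: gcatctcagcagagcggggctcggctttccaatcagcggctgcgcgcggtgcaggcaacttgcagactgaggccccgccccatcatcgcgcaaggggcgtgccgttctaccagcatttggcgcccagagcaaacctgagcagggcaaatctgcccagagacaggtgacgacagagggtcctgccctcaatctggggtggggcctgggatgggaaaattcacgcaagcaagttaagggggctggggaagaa
Psmb8: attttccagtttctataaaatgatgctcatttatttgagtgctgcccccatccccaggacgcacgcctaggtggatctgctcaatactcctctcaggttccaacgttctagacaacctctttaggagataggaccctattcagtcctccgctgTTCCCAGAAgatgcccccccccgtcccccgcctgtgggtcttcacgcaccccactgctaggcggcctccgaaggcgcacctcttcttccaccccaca

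The 8 genes were searched on both strands for this motif and for the core of the interferon-stimulated response element, a pair of GAAA separated by any 2 bases. The gamma-activated site was found in 1 of the 8 genes, Psmb8, beside 9.55% of all genes with a window (8.3% of windows). The response element core was found in 2, Psme1 and Erap1, beside 3.99% of all genes (3.44% of windows), in both cases as its reverse complement. The match of Psme1 began 9 bases after the start and is shown in capitals at chr14:55578493-55578522. That of Erap1 began 4 bases before the start and is shown at chr13:74639839-74639868, both on the + strand. The motifs do not overlap here, and a match is not a measured site.
Psme1: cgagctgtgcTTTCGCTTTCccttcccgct
Erap1: ccaccttcacTTTCACTTTCggtcccgggc

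Against control cells, 6 of the 10 genes were upregulated after 24 h of CSF-1 and 9 of 10 after 48 h, and none fell. Upregulated means an adjusted p under 0.05 by limma, adjusted by Benjamini-Hochberg for the 24648 genes in the fit, a rule that called 8.02% of all genes higher and 5.99% lower at 24 h, and 6.58% higher and 7.38% lower at 48 h. With signals centred on the median of each array, the median change of all genes moved from 0.04 to -0.25 on the log2 scale at 24 h and from -0.04 to -0.14 at 48 h, and the share of higher genes among those called fell from 57.2% to 24.4% and from 47.1% to 38.9%. The genes that rose at 24 h were Psmb9, Psme2, Tap1, Tap2, Tapbp and Nlrc5, and Psmb8, Psmb10 and Psme1 joined them at 48 h. Psmb8, Psmb9, Tap1, Tap2, Erap1 and Nlrc5 passed the filter only through stimulated groups, where they were higher. A fall could hardly be seen for them. Psmb10, Psme1, Psme2 and Tapbp were well above background on all 6 arrays. Of these 4, 2 were called at 24 h and 4 at 48 h. The median log2 fold change of the 10 genes was 1.42 at 24 h and 2.52 at 48 h, beside 0.04 and -0.04 for all genes tested. It was 0.78 and 1.31 after normexp correction, and 0.66 and 1.39 after normexp with quantile normalization. With genes dim in control cells set at the lower bound described below, it was 1.53 at 24 h over the 9 genes other than Erap1, which had no bound, and 2.23 at 48 h over all 10. With limma's p-values at the study's thresholds, an unadjusted p under 0.05 and a 2-fold change, 5 were higher at 24 h and 9 at 48 h, beside 5.86% and 4.66% of all genes. At 48 h these 9 include Erap1 and not Psme1, whose change was under 2-fold. The methods' t-test passed fewer genes at these thresholds at both times, as given in the last section.

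The values below are log2 signals relative to the 75th percentile of each array. They are given for replicates 1 and 2 of each group, and levels of different probes are not compared. Where 1 or both control arrays had a signal not well above background, the fold change is also given as a lower bound, against the lowest signal of any spot well above background on each control array or the probe's own signal where that was higher. After normexp correction, which adds an offset of 50 to each signal, the log2 fold changes of Psmb8, Psmb9, Tap1, Tap2 and Nlrc5 were smaller than those given below, from 0.34 (Psmb8) to 1.29 (Psmb9) at 24 h and from 0.99 (Psmb8) to 3.11 (Tap2) at 48 h.

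**Figure D1:**
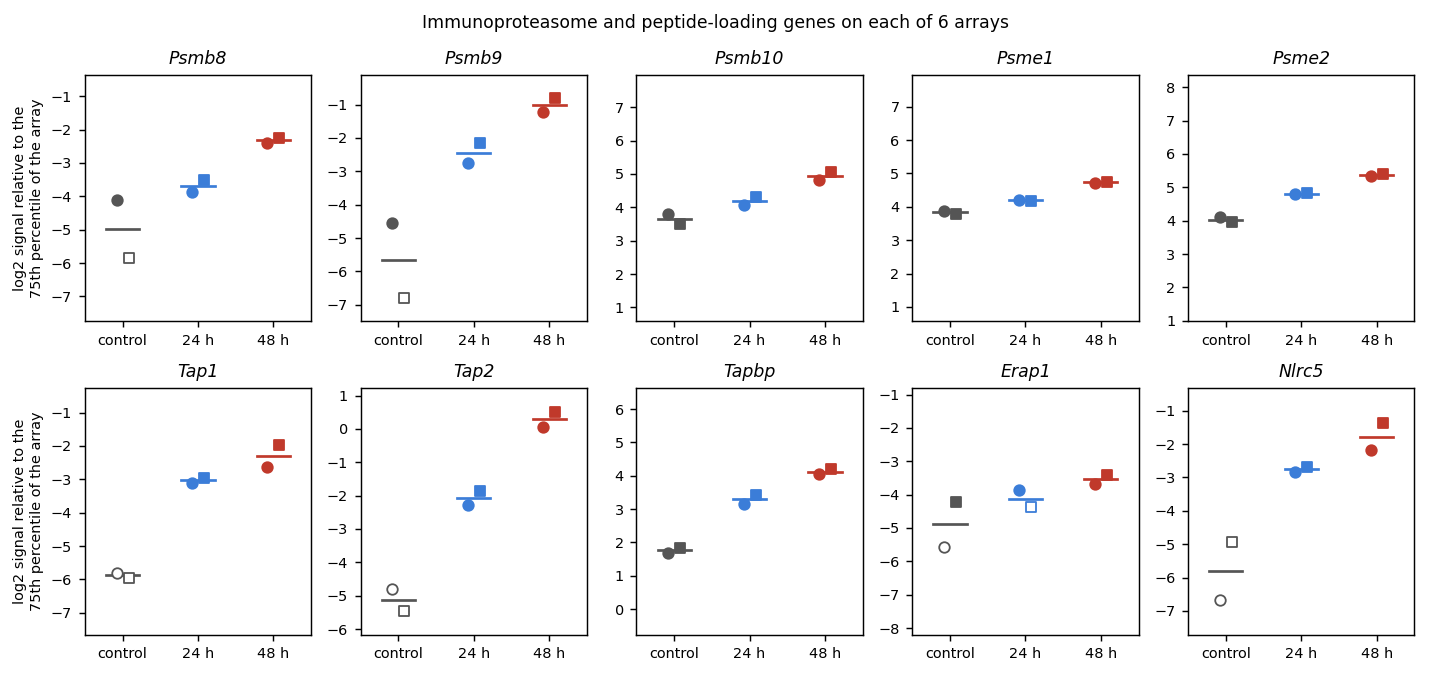
Log2 signal of each gene's brightest probe relative to the 75th percentile of the array (vertical axis, the same span in each panel) in control cells and in both stimulated groups (24 h, 48 h). Circles are replicate 1, squares replicate 2, bars group means, and open symbols arrays on which the probe was not well above background. Both 48 h arrays lie above both control arrays for all 10 genes, beside 23.8% of all genes tested. Both 24 h arrays do so for 9, beside 31.3%.

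Among the immunosubunits, Psmb9, whose product replaces the caspase-like subunit, stood at -4.54 and -6.80 in control cells, -2.74 and -2.15 at 24 h, and -1.22 and -0.80 at 48 h. The 3 groups did not overlap, and the control arrays differed from each other more than the stimulated pairs did. Only the first control array was well above background. The log2 fold change was 3.23 ± 0.73 (SE, n = 2 per group, adjusted p = 0.0451) at 24 h and 4.66 ± 0.73 (adjusted p = 0.0191) at 48 h, at least 4.51-fold and 12.2-fold. Of the fits with 1 array left out, Psmb9 passed at 24 h only without the first control array (adjusted p between 0.0547 and 0.153 in the others), and at 48 h it did not pass without either 48 h array (0.0693 and 0.0873).

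The product of Psmb8 replaces the chymotrypsin-like subunit. It stood at -4.12 and -5.86 in control cells, -3.86 and -3.51 at 24 h, and -2.39 and -2.24 at 48 h. Again the second control array was not well above background. The groups did not overlap, but the first control array lay close to the 24 h arrays. The change of 1.30 ± 0.55 at 24 h did not pass (adjusted p = 0.182), with a 95% interval from -0.08 to 2.69. At 48 h Psmb8 rose by 2.67 ± 0.55 (adjusted p = 0.0365), at least 4.26-fold. With 1 array left out, it passed at 24 h without the first control array (adjusted p = 0.0253), and at 48 h it did not pass without any 1 of the 4 stimulated arrays (0.0661 to 0.137).

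Psmb10, whose product replaces the trypsin-like subunit, was well above background on all 6 arrays, at 3.81 and 3.49 in control cells, 4.07 and 4.31 at 24 h, and 4.83 and 5.07 at 48 h. Each group lay above the one before it. The change at 24 h was 0.54 ± 0.17 (adjusted p = 0.0985), and the rise at 48 h was 1.30 ± 0.17 (adjusted p = 0.0123), or 2.46-fold. The rise did not pass without the second control array (adjusted p = 0.062) or the second 48 h array (0.0662).

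The constitutive counterparts of these subunits were not upregulated. Psmb5, Psmb6 and Psmb7 encode the catalytic subunits that Psmb8, Psmb9 and Psmb10 replace, in that order, and 0 of the 3 were called at either time by limma, 1 of them (Psmb7 at 48 h) at an unadjusted p under 0.05. Psmb5 stood at 7.11 and 6.92 in control cells and 6.74 and 6.72 at 48 h, a difference of -0.28 with a 95% interval from -0.61 to 0.04. Psmb6 differed by 0.00 at 24 h and -0.19 at 48 h, with an interval at 48 h from -0.51 to 0.12. Psmb7 stood at 4.46 and 4.32 in control cells and 3.97 and 3.94 at 48 h, a difference of -0.44 (adjusted p = 0.0568), with an interval from -0.71 to -0.16, and after normexp correction 1 of the 3 was called lower at 48 h.

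The within-array log2 ratio of each immunosubunit to its counterpart is free of the scaling of the array. For Psmb10 to Psmb7, both well above background on all arrays, the ratio centred on control cells was 0.09 and -0.09 in control cells, 0.62 and 0.87 after 24 h, then 1.61 and 1.87 after 48 h. It was higher on each of the 4 stimulated arrays than on both control arrays. A two-sided exact permutation test of the mean of the 4 stimulated arrays against the 2 control arrays gave p = 0.133, where 0.0667 is the smallest p that the 15 arrangements allow. For Psmb9 to Psmb6 and Psmb8 to Psmb5 no such ratio is given, since the second control array was not well above background for Psmb9 and Psmb8.

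**Figure D2:**
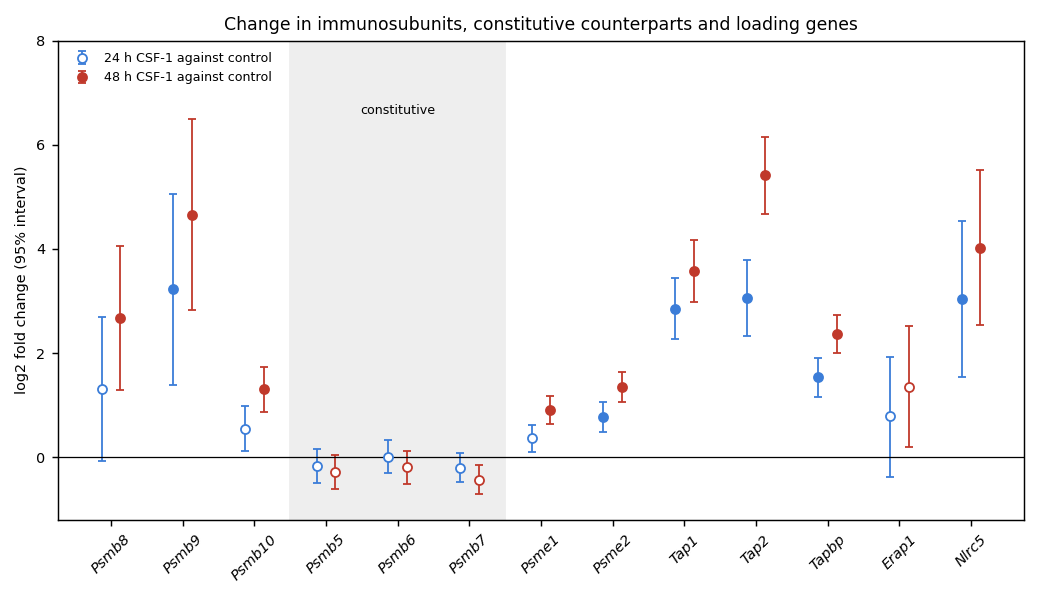
Log2 fold change against control cells (vertical axis, with the 95% interval of limma) after 24 h (blue) and 48 h (red) of CSF-1, for the 10 genes and, on grey, the 3 constitutive catalytic subunits. Filled points passed an adjusted p under 0.05. The constitutive subunits lie between -0.44 and 0.00, whereas 9 of the 10 genes are filled at 48 h.

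The PA28 activator, a ring that opens the proteasome core, was measured well above background on all arrays. Psme2, its beta subunit, stood at 4.11 and 3.95 in control cells, 4.79 and 4.82 at 24 h, and 5.35 and 5.41 at 48 h. The replicate arrays lay close together and the 3 groups apart. Psme2 rose by 0.77 ± 0.11 at 24 h (adjusted p = 0.0151) and by 1.35 ± 0.11 at 48 h (adjusted p = 0.00359), or 1.71-fold and 2.54-fold. A further Psme2 probe gave 0.70 and 1.28. A probe that the files also assign to Psme2, through another transcript and over 219297 genomic bases, was near background and was not tested. At 24 h Psme2 did not pass without the second control array (adjusted p = 0.0757) or either 24 h array (0.0732 and 0.0769).

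Psme1, the alpha subunit, stood at 3.89 and 3.78 in control cells, 4.20 and 4.18 at 24 h, and 4.72 and 4.75 at 48 h. It had the smallest change of the 9 upregulated genes and the groups did not overlap. The change was 0.36 ± 0.11 at 24 h (adjusted p = 0.0853) and 0.90 ± 0.11 at 48 h (adjusted p = 0.00891), or 1.87-fold. The rise did not pass without the second control array (adjusted p = 0.0535) or the second 48 h array (0.0576).

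Tap1 and Tap2 encode the partners that form the peptide transporter, and neither was well above background in control cells. Tap2 stood at -4.81 and -5.45 in control cells, -2.29 and -1.85 at 24 h, and 0.06 and 0.51 at 48 h. Each group mean lay more than 2 log2 units above the one before it. Tap2 rose by 3.06 ± 0.29 at 24 h (adjusted p = 0.00559) and 5.42 ± 0.29 at 48 h (adjusted p = 0.00138), at least 6.3-fold and 32.2-fold.

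Tap1 stood at -5.81 and -5.95 in control cells, -3.10 and -2.95 at 24 h, and -2.64 and -1.97 at 48 h. Against control cells, the log2 fold change was 2.85 ± 0.24 (adjusted p = 0.00398) at 24 h and 3.58 ± 0.24 (adjusted p = 0.00197) at 48 h, at least 3.24-fold and 5.36-fold. On the log2 scale, the mean at 24 h lay closer to that at 48 h than to that of control cells. The control level was not well above background, and the difference of 0.72 between the times was not called by limma (adjusted p = 0.286).

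Tapbp, which encodes tapasin, the bridge between TAP and empty class I molecules, was well above background on all arrays. It stood at 1.68 and 1.85 in control cells, 3.15 and 3.43 at 24 h, and 4.06 and 4.19 at 48 h. The groups were separated by more than the spread of any pair of replicates. Tapbp rose by 1.53 ± 0.15 at 24 h (adjusted p = 0.00569) and 2.37 ± 0.15 at 48 h (adjusted p = 0.00169), or 2.89-fold and 5.16-fold.

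Erap1, the aminopeptidase of the endoplasmic reticulum, was the only one of the 10 that passed an adjusted p under 0.05 at neither time. It stood at -5.58 and -4.21 in control cells, -3.87 and -4.37 at 24 h, and -3.67 and -3.42 at 48 h, with 1 control array and 1 array at 24 h well above background. Control cells and the 24 h group overlapped. The differences were 0.78 ± 0.46 (adjusted p = 0.323) and 1.35 ± 0.46 (adjusted p = 0.118), with 95% intervals from -0.38 to 1.93 and from 0.19 to 2.51. The bound at 48 h was 1.92-fold, but it leaves out the spread between arrays, and the interval reached below it. At 24 h no bound could be set because neither group was above background on both arrays. Without the second control array, Erap1 passed at 48 h, by 2.04 (adjusted p = 0.0413).

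Nlrc5 was read at the end of its transcript, from base 6877, at chr8:97051105-97051164. This probe stood at -6.66 and -4.93 in control cells, both not well above background, -2.83 and -2.68 at 24 h, and -2.18 and -1.37 at 48 h. The stimulated arrays all lay above the control arrays. Nlrc5 rose by 3.03 ± 0.59 at 24 h (adjusted p = 0.0319) and 4.02 ± 0.59 at 48 h (adjusted p = 0.0164), at least 3.91-fold and 7.74-fold. The weaker probe, shown above, stood between -5.00 and -4.16 on all 6 arrays, was well above background on 1 control array and 1 array at 48 h, and was not tested, so the rise rests on 1 probe. It did not pass at 24 h without the first control array (adjusted p = 0.0572) or either 24 h array (0.114 and 0.116), nor at 48 h without the second 48 h array (0.0772).

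All 10 genes had a higher mean at 48 h than at 24 h, but limma called none of them between these times, nor any of the 24648 genes (0% called). Both 48 h arrays lay above both 24 h arrays for 10 of 10 genes, beside 14.2% of all genes tested. At an unadjusted p under 0.05, 6 of the 10 were higher at 48 h, beside 4.38% of all genes. Tap2 differed most, by 2.35 ± 0.29 (unadjusted p = 0.000324, adjusted p = 0.116), or 5.11-fold, and was the only one of the 10 that also passed the 2-fold threshold, which 0.868% of all genes passed upward. The differences of the others ranged from 0.55 for Psme1 to 1.43 for Psmb9. Against control cells, both arrays lay above both control arrays for 9 genes at 24 h, beside 31.3% of all genes, and for 10 at 48 h, beside 23.8%.

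Other genes of the proteasome that passed the test fell, in numbers to be read against the 5.99% and 7.38% of all genes called lower at 24 h and 48 h. Of 11 other subunits of the 20S core, the barrel that holds the catalytic sites, 0 rose and 1 fell at 48 h, Psma1 by 0.70 (adjusted p = 0.0198), and the median log2 fold change was -0.21 at 24 h and -0.33 at 48 h. Psma6 and Psma4, the next most changed, differed by -0.50 and -0.48 without passing. Of 21 genes of the 19S regulatory particle, the cap that recognizes ubiquitin, 0 rose and 2 fell at 48 h, Psmd6 by 0.65 and Psmd5 by 0.53, with a median of -0.32, and Psmc6 differed by -0.37 without passing. Of 8 genes for other activators, an inhibitor and assembly factors, 0 rose and 2 fell at 48 h, the assembly chaperones Psmg1 by 0.85 and Psmg2 by 0.67, while Psmg3 differed by -0.48 without passing. At 24 h, 0 of the 11, 0 of the 21 and 1 of the 8 (Psmg1) fell. The counts depended on the scaling, with 3, 6 and 3 lower at 48 h after normexp correction and 4, 3 and 2 lower at 24 h with median centring, while 0 rose and the medians were below 0 under each scaling run at both times.

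In the endoplasmic reticulum, Tapbpl, which encodes the tapasin-related peptide editor TAPBPR, rose by 1.15 ± 0.19 at 24 h (adjusted p = 0.0207) and 2.07 ± 0.19 at 48 h (adjusted p = 0.00459). It stood at -2.84 and -3.03 in control cells, -1.87 and -1.70 at 24 h, and -1.11 and -0.64 at 48 h. It was the 1 of 9 loading partners that rose, while 2 fell at 24 h and 3 at 48 h. Under the other scalings between 1 and 5 fell at 24 h and between 0 and 4 at 48 h. Pdia6, a disulfide isomerase, fell by 0.60 at 24 h and by 0.46 at 48 h, and the chaperone gene Hsp90b1 differed by -0.51 and -0.53 without passing. Of 9 cytosolic and other peptidases that trim or destroy peptides, 0 rose and 1 fell at 48 h, Thop1 by 0.60, with Blmh at -0.46 and Lap3 at -0.26 without passing.

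The heavy chains that receive the peptides, with B2m, rose in 7 of 11 tested at 24 h and 8 of 11 at 48 h, and none fell. The probes of H2-D1, H2-Q7 and H2-Q6 changed by 3.12, 2.86 and 2.05 at 24 h and by 5.11, 4.93 and 4.03 at 48 h. These are related class I genes whose probes may share RNA, which was not tested. The median of this list was 1.21 at 24 h and 2.89 at 48 h. Of 7 class II genes tested, 0 rose at 24 h and 1 at 48 h, H2-DMb1 by 1.46 (adjusted p = 0.0330). H2-Ab1, not above background in control cells, differed by 1.87 at 24 h (at least 1.97-fold) and was above background on only 1 array at 48 h, and the class II transactivator gene Ciita differed by 0.72 and 0.41, none of them passing, and 4 of 11 class II genes were not tested.

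**Figure D3:**
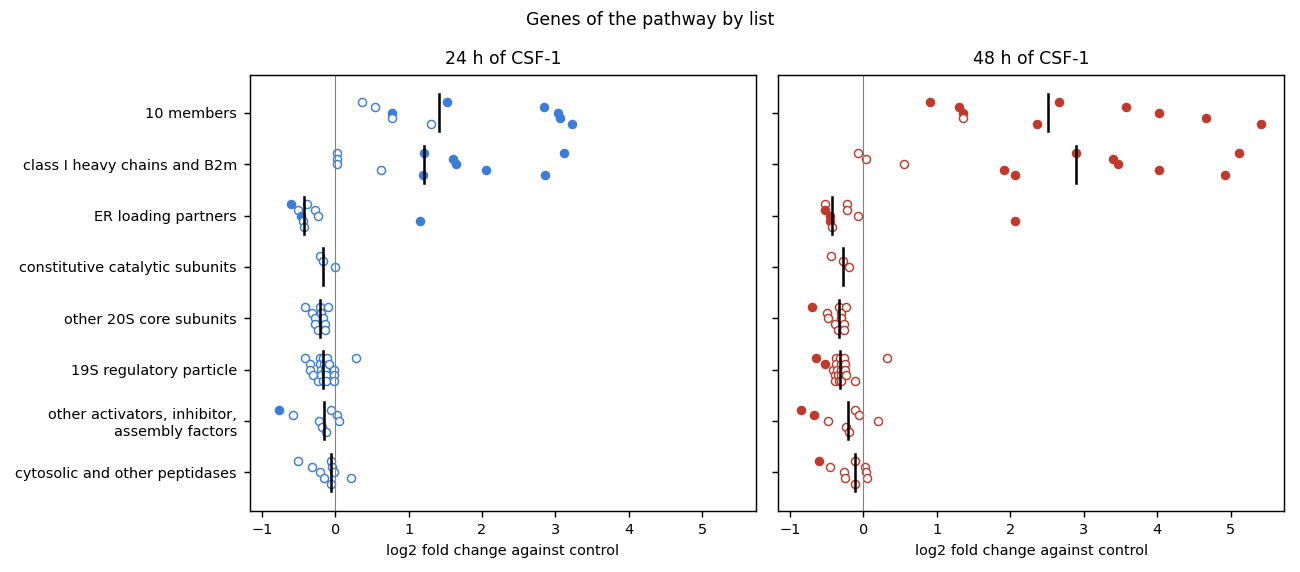
Log2 fold change against control cells (horizontal axis) after 24 h (left) and 48 h (right) of CSF-1, 1 point per gene tested, by list. Filled points passed an adjusted p under 0.05 and black bars are medians. The 10 genes have medians of 1.42 and 2.52 and the class I list 1.21 and 2.89, and the 6 other lists plotted have medians below 0.

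Among 10 tested genes for interferons, their receptors and the factors that act below them, 4 rose and 1 fell at 24 h, and 5 rose and 1 fell at 48 h. Stat2 and Irf9 encode partners in the interferon-stimulated transcription complex ISGF3. Stat2 rose by 2.77 ± 0.18 and 3.54 ± 0.18 (adjusted p = 0.00235 and 0.00127), and Irf9 by 2.73 ± 0.24 and 2.79 ± 0.24 (adjusted p = 0.00437 and 0.00373). Irf1, a factor known to act on Tap1 and Psmb9, rose by 1.25 ± 0.23 and 2.08 ± 0.23 (adjusted p = 0.0262 and 0.00738). The probe of Ifnb1 was not well above background on any array and that of Ifng on 1 of 6, a control array.

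Several of the 10 genes are neighbors, and distances are between probes on mm9. On chromosome 17, Psmb9 lies 11.7 kb from Tap1, and Psmb8 and Tap2 lie at 6.9 and 22.3 kb on the other side. All 4 rose at 48 h, as did H2-DMb1, beyond Psmb9, by 1.46 (0.54 at 24 h, without passing). H2-Ob, 49.8 kb away on the other side, differed by 0.26 at 24 h and 0.04 at 48 h without passing. On chromosome 14, Psme2 lies 6.1 kb from Psme1. Within 50 kb of 1 of the 10 lie 31 other tested genes, leaving out those named only by a transcript identifier or a position. Of the 31, 4 rose and 1 fell at 24 h, beside 8.02% and 5.99% of all genes tested. At 48 h, 6 rose and 4 fell, beside 6.58% and 7.38%. The medians of the 31 were 0.08 and 0.11. The 3 most changed were H2-K2, 46 kb from Tapbp, by 3.11 and 5.07, Irf9, 28.6 kb from Psme1, with the values given above, and Rnf31, a subunit gene of the linear ubiquitin ligase 22.1 kb from Psme1, by 1.11 and 1.08 (adjusted p = 0.00717 and 0.00739). The H2-K2 probe reads a class I gene and may share RNA with related genes, which was not tested.

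**Figure D4:**
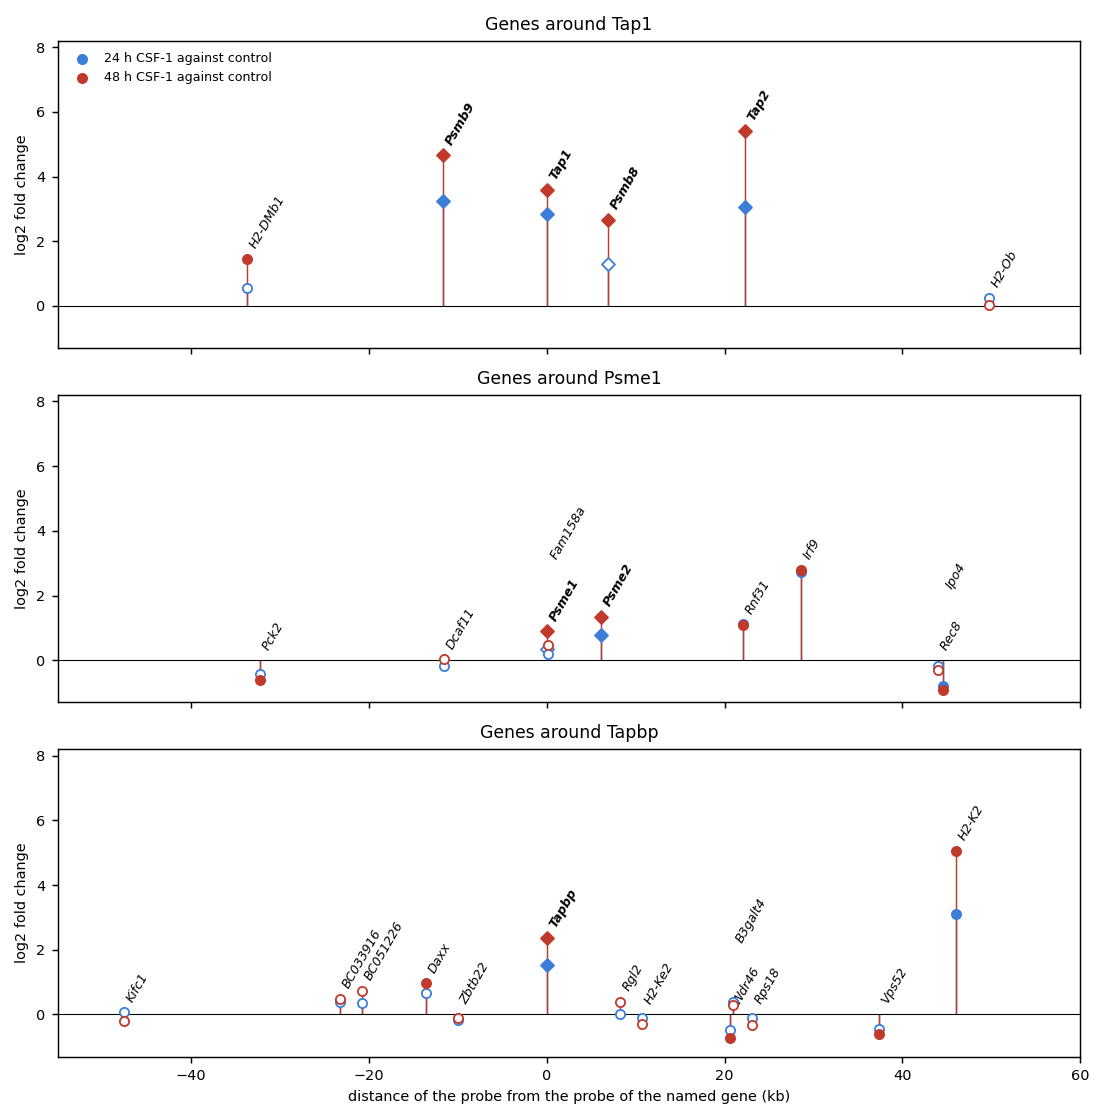
Log2 fold change against control cells (vertical axis) after 24 h (blue) and 48 h (red) of CSF-1, by the distance between probes in kb (horizontal axis). Shown are tested genes with a gene symbol within 50 kb of Tap1, Psme1 and Tapbp. Diamonds and bold names are the 10 genes, circles are other genes, and filled symbols passed an adjusted p under 0.05. Psmb9, Tap1, Psmb8 and Tap2 are filled at 48 h. Among the circles, H2-DMb1, Rnf31, Irf9, Daxx and H2-K2 are filled above 0 at 48 h. Pck2, Ipo4, Wdr46 and Vps52 are filled below 0 at 48 h.

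Each of the 10 genes was centred over the 6 arrays, and the centred values were averaged over the genes on each array. The 5 genes with the most similar profile among all others tested were Hook2 (Pearson r = 0.9996), Pttg1 (r = 0.9995), Gm10775 (r = 0.9991), Ube2l6 (r = 0.9986) and 2010005H15Rik (r = 0.998). These are correlations over 6 arrays in 3 groups, which share their scaling, and 504 genes had r over 0.95. Ube2l6, which encodes a conjugating enzyme for ISG15, changed by 2.33 at 24 h and 3.50 at 48 h, and 2010005H15Rik by 4.95 and 7.82. Within the 10, the correlation with this mean, to which each gene contributes, ran from 0.756 for Erap1 to 0.996 for Tap2 and Psme2.

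With the first 24 h array left out, and so within 1 slide, Tap1, Tap2 and Tapbp kept their call at 24 h and 8 of the 10 were called at 48 h, all except Psmb8 and Erap1. An exact test of 2 arrays against 2 could not go below p = 0.333, so all calls rest on limma's shared estimate of the spread.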

How the data were processed

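RNA of N18-Fms cells was measured on 6 single-color Agilent mouse arrays. The authors deposited, per array, Feature Extraction 11.0.1.1 output with background-subtracted spot intensity (arbitrary units), mean pixel and local background intensity, and flags; these values were not normalized between arrays. A second file of the authors gives log2 values of 44569 probes, deposited with no statement of their centring. Set against the signals, 99.81% of its differences between arrays deviated by under 0.05.

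Signals were put on the log2 scale and the 75th percentile of the array, over spots other than controls, was subtracted. Outlier spots were left out, repeated spots averaged, and the brightest probe by the mean over arrays stood for a gene. Of 36028 genes, 24648 passed the filter (a group with both arrays well above background) and entered the test. Groups were compared with limma 3.58.1 (lmFit and eBayes, 2-sided; R 4.3.3) on all 6 arrays, with 3 residual and 2.39 prior degrees of freedom. P-values were adjusted by Benjamini-Hochberg over these genes. Simulated data with known changes were used to check the scripts. RefSeq promoter windows were searched for motifs.

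The members and lists were chosen with earlier results of these data known. Genes named beside the members are, per list, the 3 tested genes with the largest mean absolute change (every gene in a list of 3). Added to these are the 3 most changed genes with a gene symbol within 50 kb, and the 5 genes with the most similar profile. Alternatives were other scalings, background correction by normexp (offset 50), the authors' log2 values, other filters and probe summaries, the intensity trend, the compared groups alone, blocks for replicate number and slide, the methods' test and leaving out each array. For the replicate number, deviations of same-numbered arrays correlated at 0.13, 0.09 and 0.20.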

Additional observations from a re-analysis of the deposited data

How the results depend on the processing

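Every one of the 10 genes, where tested, kept a positive change at both times and between them under each alternative run, with 1 exception, Erap1 at 24 h, which was not called and stood at -0.07 after normexp with quantile normalization. The 6 genes called at 24 h became 3 without a filter on dim probes, 2 of 4 when a signal above background was required on every array, 3 with the slide as a block, and 0 by the methods' t-test after adjustment or 3 at its unadjusted threshold with a 2-fold change. The 9 called at 48 h became 5, 4 of 4, 8, and 0 or 5 in the same order. The fit with a replicate block gave 5 at 24 h, 8 at 48 h and 0 between them, and same-numbered arrays share only a number. Between 24 h and 48 h, where 0 were called, 1 passed an unadjusted p under 0.05 with a 2-fold change, 2 passed the methods' t-test so, and 2 passed after normexp, 4 after normexp with quantile normalization, and 4 with an intensity trend. Leaving out 1 array gave 3 to 6 calls at 24 h, with 3 without either 24 h array and 4 without the second control array, and 4 to 9 at 48 h, with 4 without the second 48 h array, where the lone array of a group is assumed to vary like the others. The count between the times stayed 0. The median change at 24 h was 0.78 after normexp, 0.66 after normexp with quantile normalization, 0.66 with all 6 arrays above background, and 1.26 to 1.81 with 1 array left out. At 48 h it was 1.31, 1.39, 1.32 and 2.24 to 2.72, and 2.13 with the mean of a gene's probes. Calls of single genes differed in how many alternatives kept them. Psmb9 lost its call at 24 h under 11 of 18 alternatives, Psmb8 at 48 h under 9 of 18, Nlrc5 at 24 h under 8 of 18 and Psme2 at 24 h under 7 of 20, while Tap1, Tap2 and Tapbp lost theirs under 1 each at either time. Psmb8, Psmb9, Tap1, Tap2, Erap1 and Nlrc5 were not well above background on 1 or both control arrays. This limits their folds against control cells to lower bounds where one could be set, and these bounds leave out the spread between arrays. The cause of these changes was not tested.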
